A study of Homo sapiens with 9 samples.

Results

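Occupancy of RNA polymerase II was described at 10 genes for spliceosomal RNAs: RNU2-2P, RNU4-1, RNU4-2, RNU5A-1, RNU5B-1, RNU5D-1, RNU5E-1, RNU5F-1, RNU11 and RNU12. They are 10 of the 62700 genes of GENCODE version 44 and 10 of its 1901 genes annotated as small nuclear RNA (snRNA). The genes were chosen by their measured peaks, whose fold enrichment ranked high, so their having peaks and high ranks describes the choice and was not tested. A peak was assigned to a gene when its summit, the position of the highest signal, lay within 1000 bp of the gene start or when the peak overlapped the gene.

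The polymerase was mapped by chromatin immunoprecipitation of POLR2A, its largest subunit, in HEK293T, a line of human embryonic kidney cells. There were 3 conditions: cells with a control shRNA, labelled as wild type, cells depleted of U2AF1 by knockdown, and cells depleted of DHX9 in the same way. U2AF1 is the U2AF subunit that recognises the AG at the 3′ splice site, and DHX9 is a helicase that unwinds RNA and DNA structures. Each condition had 2 immunoprecipitated samples and 1 input sample, 9 in all, and 1 deposited list of peaks. These are called the control list, with 2757 peaks, the U2AF1 list, with 1730, and the DHX9 list, with 4443. No value below has a replicate error, the lists do not state how deeply the libraries were sequenced, and a difference between lists is a difference between 3 single lists. The labels do not say whether the knockdowns were pools or clones, and chromatin data do not measure how far U2AF1 or DHX9 was reduced.

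The RNAs of these genes form the cores of the spliceosome's particles. U2 pairs with the branch site of an intron, U4 keeps U6 inactive by pairing with it until the spliceosome is activated, and U5 holds the exon ends. U11 and U12 take the places of U1 and U2 on the rare minor introns. Their genes are short, have no introns and are read by RNA polymerase II from a compact promoter, with a distal element that binds the octamer factor POU2F1 (OCT1) and often ZNF143, and a proximal sequence element that binds the SNAPc complex. Their transcripts are cut by the Integrator complex near a 3′ box just past the gene, and the polymerase runs on beyond it.

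All 10 promoters held an octamer at nearly the same distance from the start. The 41 bases from 235 to 195 bases before each annotated start are shown because they hold this element in every one of the genes. They are written 5′ to 3′ on the gene's strand from the GRCh38 reference, and the capitals mark the best match to ATGCAAAT, or to its reverse complement ATTTGCAT, with at most 1 mismatch.
RNU2-2P: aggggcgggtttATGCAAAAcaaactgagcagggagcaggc
RNU4-1: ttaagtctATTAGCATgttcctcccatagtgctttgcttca
RNU4-2: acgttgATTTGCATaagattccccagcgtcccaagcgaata
RNU5A-1: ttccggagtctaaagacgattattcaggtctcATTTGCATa
RNU5B-1: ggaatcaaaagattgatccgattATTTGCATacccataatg
RNU5D-1: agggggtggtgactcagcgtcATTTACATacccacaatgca
RNU5E-1: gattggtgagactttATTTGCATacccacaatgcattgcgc
RNU5F-1: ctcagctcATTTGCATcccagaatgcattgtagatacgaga
RNU11: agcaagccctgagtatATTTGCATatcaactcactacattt
RNU12: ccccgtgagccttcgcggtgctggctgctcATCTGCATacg

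The octamer matched without a mismatch in 6 of the 10 genes, and with 1 mismatch in RNU2-2P, RNU4-1, RNU5D-1 and RNU12. Its first base lay between 229 bases (RNU4-2) and 203 bases (RNU5A-1) before the start. The 250 bases before the start were searched on both strands. The octamer with at most 1 mismatch was found in 15.3% of 35114 RefSeq promoters and 33.3% of the 1891 other annotated snRNA genes. The exact octamer was found in 1.63% and 3.7%. Of related genes outside the 10, RNU2-1 (U2), RNU4ATAC (minor spliceosome) and RNU7-1 (U7) held the exact octamer. The U1 genes RNU1-1, RNU1-2, RNU1-3 and RNU1-4 held no match, nor did RNU6ATAC and RN7SK. In the narrower window shown above, which was chosen after these sequences were seen, 2.89% of the RefSeq promoters and 6.24% of the other snRNA genes held a match. Directly after the octamer, RNU5B-1, RNU5D-1, RNU5E-1 and RNU5F-1 carried CCCANAATG, the core of the motif of the zinc finger factor ZNF143, on the strand of the gene. It began 203, 205, 211 and 219 bases before the start in these 4 genes. This motif was looked for after the sequences were seen. On both strands, 1.15% of the RefSeq promoters and 1.69% of the other snRNA genes held it.

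Nearer to the start, the genes shared a short stretch at the place of the proximal sequence element. The 46 bases from 80 to 35 bases before the start are shown because they cover that element, and the capitals mark ACC starting between 62 and 56 bases before the start.
RNU2-2P: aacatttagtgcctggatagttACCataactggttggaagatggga
RNU4-1: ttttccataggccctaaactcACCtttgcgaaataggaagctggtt
RNU4-2: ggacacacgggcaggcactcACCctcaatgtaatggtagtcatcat
RNU5A-1: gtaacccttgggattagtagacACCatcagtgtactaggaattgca
RNU5B-1: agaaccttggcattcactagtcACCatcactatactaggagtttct
RNU5D-1: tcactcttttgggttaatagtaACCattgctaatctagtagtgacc
RNU5E-1: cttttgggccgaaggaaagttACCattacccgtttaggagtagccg
RNU5F-1: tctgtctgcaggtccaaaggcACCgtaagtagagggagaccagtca
RNU11: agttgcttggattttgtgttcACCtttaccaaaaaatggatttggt
RNU12: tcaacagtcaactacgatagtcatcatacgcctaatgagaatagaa

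The pattern listed for this element, ACC followed by any 8 bases and AAAG on the strand of the gene, matched with at most 1 mismatch in 3 of the 10 genes, RNU4-1, RNU4-2 and RNU11, and without a mismatch in 0. It was found with at most 1 mismatch in 2.95% of the RefSeq promoters and 8.2% of the other snRNA genes. The letters ACC alone stood at this place in 9 of the 10 genes, all but RNU12, against 8.09% of the RefSeq promoters and 9.52% of the other snRNA genes, a comparison made after the windows were seen. The letters TATA, typical of the snRNA promoters read by RNA polymerase III, were searched on the strand of the gene. The window ran from 35 to 20 bases before the start. They were found in 0 of the 10 genes, in 5.45% of the RefSeq promoters and in 8.83% of the other snRNA genes. Outside the 10, RN7SK and RNU7-1 held these letters and RNU6ATAC did not, although only RNU7-1 of these had peaks. A match describes letters only, and a missing match says only that these letters were not in the window.

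The 5 U5 genes differed from each other more before the start than in their RNAs. Identity over the aligned RNA ran from 79.0% to 94.0% over the 10 pairs of U5 genes, highest between RNU5A-1 and RNU5B-1. Over the 250 bases before the start it was lower, from 53.7% to 66.7%. The U4 genes were closer still and are shown because their peaks were joined in 2 of the lists. The capitals mark the Sm site, an A, 4 to 6 T and a G, on which the ring of Sm proteins assembles.
RNU4-1: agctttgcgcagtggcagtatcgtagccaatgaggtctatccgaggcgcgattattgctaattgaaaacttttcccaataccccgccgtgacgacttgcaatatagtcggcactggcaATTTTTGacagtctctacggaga
RNU4-2: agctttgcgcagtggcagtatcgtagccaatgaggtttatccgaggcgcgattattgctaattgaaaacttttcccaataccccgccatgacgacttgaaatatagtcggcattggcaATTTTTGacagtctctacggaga

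RNU4-1 and RNU4-2 were identical at 137 of 141 positions, or 97.2%, while the 250 bases before their starts shared 51.7%. RNU2-2P shared 95.8% of its RNA with RNU2-1, the U2 gene of chromosome 17, and 54.6% of the 250 bases before the start. RNU11 and RNU12, which encode different RNAs, shared 47.8% of their RNAs and 48.8% of the 250 bases before the start. No value for unrelated sequences was computed, so upstream shares of this size do not by themselves show conserved sequence. The Sm site was found in 10 of 10 genes and in 11.8% of the other snRNA genes. The 3′ box, searched as GTTT, 0 to 3 bases and AAA on the strand of the gene within 40 bases of its end, was found in 2 of the 10, against 2.16% of 20046 ends of protein-coding genes and 4.44% of the other snRNA genes. The first 30 bases after these 2 genes follow, with the box in capitals.
RNU5D-1: catcaacggtGTTTAAAAAtcagatagaaa
RNU5E-1: tattttaagtGTTTTAAAAAcagatgcgat

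The box began 11 bp after the end of both RNU5D-1 and RNU5E-1.

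All 10 genes had a peak in each of the 3 lists. The same rule gave a peak to 5.93% of all annotated genes in the control list, 3.42% in the U2AF1 list and 9.79% in the DHX9 list. Among annotated snRNA genes it gave 2.89%, 2.79% and 3%, which were 55, 53 and 57 genes, and 53 of them, or 2.79%, had a peak in all 3 lists. For protein-coding genes with a summit within 1000 bp of the start, the shares were 11%, 5.6% and 18%, or 2200, 1123 and 3613 genes. The number of coding starts with a peak thus differed widely between the lists, and the number of snRNA genes with a peak did not. Both knockdown lists are set against the same control list. All 10 control peaks were overlapped by at least 1 bp in both of them, where 34.6% of all control peaks were overlapped in the U2AF1 list and 66.8% in the DHX9 list. Of the 100 control peaks of highest fold enrichment, 90 were overlapped in both, so strong peaks as such were mostly shared. Nothing lay close to the limits of the rule. The most distant summit it admitted through the window alone was a second, weak peak of RNU12 at 463 bp before the start, and the nearest that it left out for RNU4-2 was the summit of the RNU4-1 peak in the U2AF1 list, 1166 bp before the start.

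The 10 genes stood near the head of each list by fold enrichment, the authors' own ratio of the signal at the summit to the local background. Fold enrichment depends on the depth and background of each list, so it is used here to rank peaks within a list, and ranks in lists of different length do not show a change in occupancy. The median rank of the 10 genes was 21.5 of 2757 in the control list, 32 of 1730 in the U2AF1 list and 29.5 of 4443 in the DHX9 list. These were the top 0.78%, 1.85% and 0.664% of the lists. Of the 10 genes, 9 were among the first 50 peaks of the control list, 7 in the U2AF1 list and 8 in the DHX9 list.

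**Figure D1:**
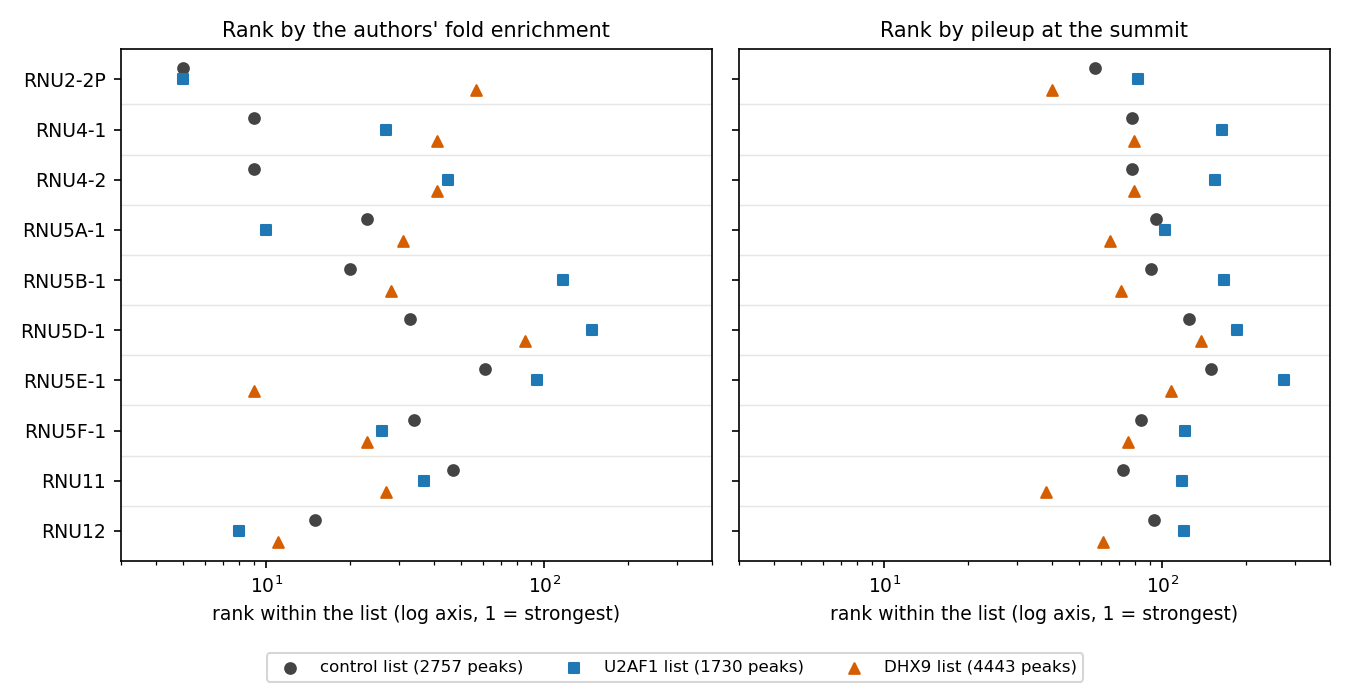
Rank of each gene's peak within each list by the authors' fold enrichment (left) and by the pileup at the summit recovered from the deposited values (right), both on log axes where 1 is the strongest peak. Circles are the control list, squares the U2AF1 list and triangles the DHX9 list, without replicates. By fold enrichment RNU2-2P ranked 5, 5 and 57, and by pileup it ranked 57, 82 and 40.

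RNU2-2P, the U2 gene outside the chromosome 17 array, lies at chr11:62841619-62841809 on the minus strand and shares its start with a transcript of WDR74, a ribosome assembly factor, whose exon and UTR overlap it. It had fold enrichments of 40, 26.3 and 19.7 in the control, U2AF1 and DHX9 lists, at ranks 5, 5 and 57. It was the first of the 10 genes in the control and U2AF1 lists and the ninth in the DHX9 list. Because both genes start at the same base, polymerase of WDR74 and of RNU2-2P cannot be told apart in this peak.

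RNU4-1 and RNU4-2 lie on the minus strand at chr12:120293097-120293237 and chr12:120291763-120291903, with starts 1334 bp apart. In the control and DHX9 lists they fell in a single peak of 2614 and 2583 bp, with fold enrichments of 29.2 and 25.03 at ranks 9 and 41. Its summit lay past the end of RNU4-2, by 99 and 147 bp. In the U2AF1 list the genes had a peak each, 317 bp apart. There RNU4-1 had a fold enrichment of 15.5 at rank 27 and RNU4-2 one of 12.4 at rank 45. The 10 genes therefore rested on 9 distinct peaks in the control and DHX9 lists and on 10 in the U2AF1 list.

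The 5 U5 genes stood at different places within each list. RNU5A-1 (chr15:65296051-65296166, plus strand, antisense in an intron of PARP16) had fold enrichments of 21.2, 22.3 and 29.4 in the control, U2AF1 and DHX9 lists, at ranks 23, 10 and 31. Its neighbour RNU5B-1 (chr15:65304677-65304792, plus strand), whose start is 8626 bp away, had 22.3, 8.60 and 31.1, at ranks 20, 117 and 28. These neighbours thus stood close together in the control and DHX9 lists and far apart in the U2AF1 list. RNU5D-1 (chr1:44731055-44731170, minus strand) had 18.6, 7.95 and 14.6, at ranks 33, 148 and 85, the lowest of the 10 genes in both knockdown lists. RNU5F-1 (chr1:44721786-44721902, minus strand, antisense in an intron of ARMH1), with its start 9268 bp from that of RNU5D-1, had 18.4, 15.8 and 32.3, at ranks 34, 26 and 23. RNU5E-1 (chr1:11908152-11908271, plus strand, within an exon of the long noncoding RNA gene ENSG00000285646) had 14.25, 9.53 and 43.0, at ranks 61, 94 and 9. It was thus the lowest of the 10 in the control list and the highest in the DHX9 list.

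RNU11 and RNU12, whose RNAs serve the minor spliceosome, stood among the first 50 peaks in all lists. RNU11 (chr1:28648600-28648733, plus strand) starts 309 bp from the start of TAF12, a TFIID subunit gene on the other strand, and had fold enrichments of 16.25, 13.2 and 31.1 at ranks 47, 37 and 27. RNU12 (chr22:42615244-42615393, plus strand) starts 282 bp from the start of POLDIP3, an RNA export factor gene on the other strand, and had 24.4, 24.9 and 39.8 at ranks 15, 8 and 11. RNU12 was among the first 15 peaks of all 3 lists. It had a second peak in the DHX9 list alone, 403 bp wide, on the side of POLDIP3, with a fold enrichment of 5.33 at rank 2143. In the control list the single peak of RNU12 reached 417 bp before the start, into that side, and in the U2AF1 list it reached 124 bp. The peaks of RNU11 and RNU12 hold the starts of long noncoding RNA genes at the same base as well, ENSG00000270103 and ENSG00000270022.

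Within a list, the order of the genes by fold enrichment differed from their order by signal at the summit. In MACS2, which the submitters' processing notes name, fold enrichment is the pileup at the summit plus 1, divided by the local background plus 1, and the p-value is Poisson. Solving both for each peak returned a pileup within 0.05 of a whole number for 100% of the peaks solved in each knockdown list, but for 11.3% of those in the control list, so the control values appear to be scaled and are not set beside the others. In the DHX9 list RNU5E-1 had a pileup of 122, the second lowest of the 10 genes, over a background of 1.86, the lowest. RNU2-2P there had a pileup of 230, 1 of the 2 highest, over a background of 10.7, the highest. By fold enrichment RNU5E-1 stood before RNU2-2P, and by pileup RNU2-2P stood first, at rank 40 against 107. By −log10 p, RNU2-2P ranked 25 and RNU5E-1 44.

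In the U2AF1 list the pileup was 112 at RNU5A-1 (95% exact Poisson interval 92.2 to 135, counting error only) and 78 at RNU5B-1 (61.7 to 97.3), over backgrounds of 4.06 and 8.18. The 2 intervals overlap, which does not show that the pileups are alike, and their difference was not tested. The background of RNU5B-1 was the higher of the 2. RNU2-2P had the highest pileup in that list, 133 (111 to 158), and RNU5E-1 the lowest, 54 (40.6 to 70.5), and those intervals do not overlap. RNU11, RNU12 and RNU5F-1 stood at 102, 101 and 101. In the DHX9 list RNU11 had 233 (204 to 265) and RNU2-2P 230 (201 to 262), and the lowest was RNU5D-1 with 95 (76.9 to 116). The remaining genes of that list lay between 122 and 187. The control pileups, on their scaled unit, ran from 155 at RNU5E-1 to 414 at RNU2-2P. The order of the genes by pileup thus had RNU2-2P first or second and RNU5E-1 or RNU5D-1 last in each list. By pileup the median ranks were 87.5, 137.5 and 73, so the 10 genes were farther from the head of each list by pileup than by fold enrichment.

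**Figure D2:**
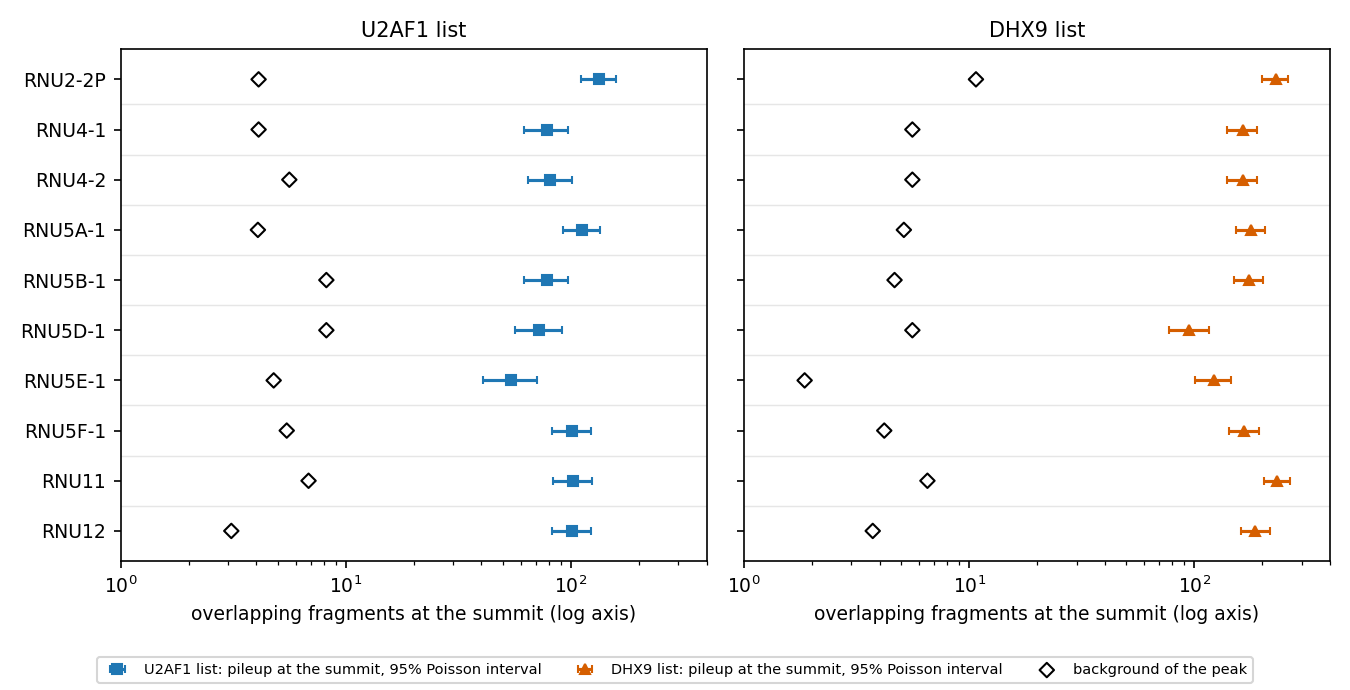
Pileup at the summit with its 95% exact Poisson interval (filled points) and local background (open diamonds) for each gene in the U2AF1 list (left) and the DHX9 list (right), as overlapping fragments on log axes. The background of RNU5E-1 in the DHX9 list, 1.86, is the leftmost diamond, and that of RNU2-2P, 10.7, the rightmost.

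The peaks covered each gene whole and ran far past its end. Their median widths in the control, U2AF1 and DHX9 lists were 1259.5, 983 and 1410.0 bp, where all peaks had medians of 319, 287 and 324 bp and the 100 strongest peaks 920, 778.5 and 1128.5 bp. All 10 were wider than the median of their list. Leaving aside RNU4-1 and RNU4-2, whose peaks were joined, the peaks of the other 8 genes ran past the gene's end by 683 to 1757 bp for the control list, 644 to 1724 bp for the U2AF1 list and 928 to 1678 bp for the DHX9 list. Upstream of the start the control peaks of these 8 genes reached 128 to 417 bp. The longest peak of the 8 was that of RNU5E-1 (2054, 1941 and 1918 bp in the control, U2AF1 and DHX9 lists). It also covers RNU5E-4P, a U5 pseudogene on the other strand that starts 1775 bp away. This peak set the upper limit past the gene's end in each list, and the next was that of RNU2-2P, with 1359, 996 and 1599 bp.

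**Figure D3:**
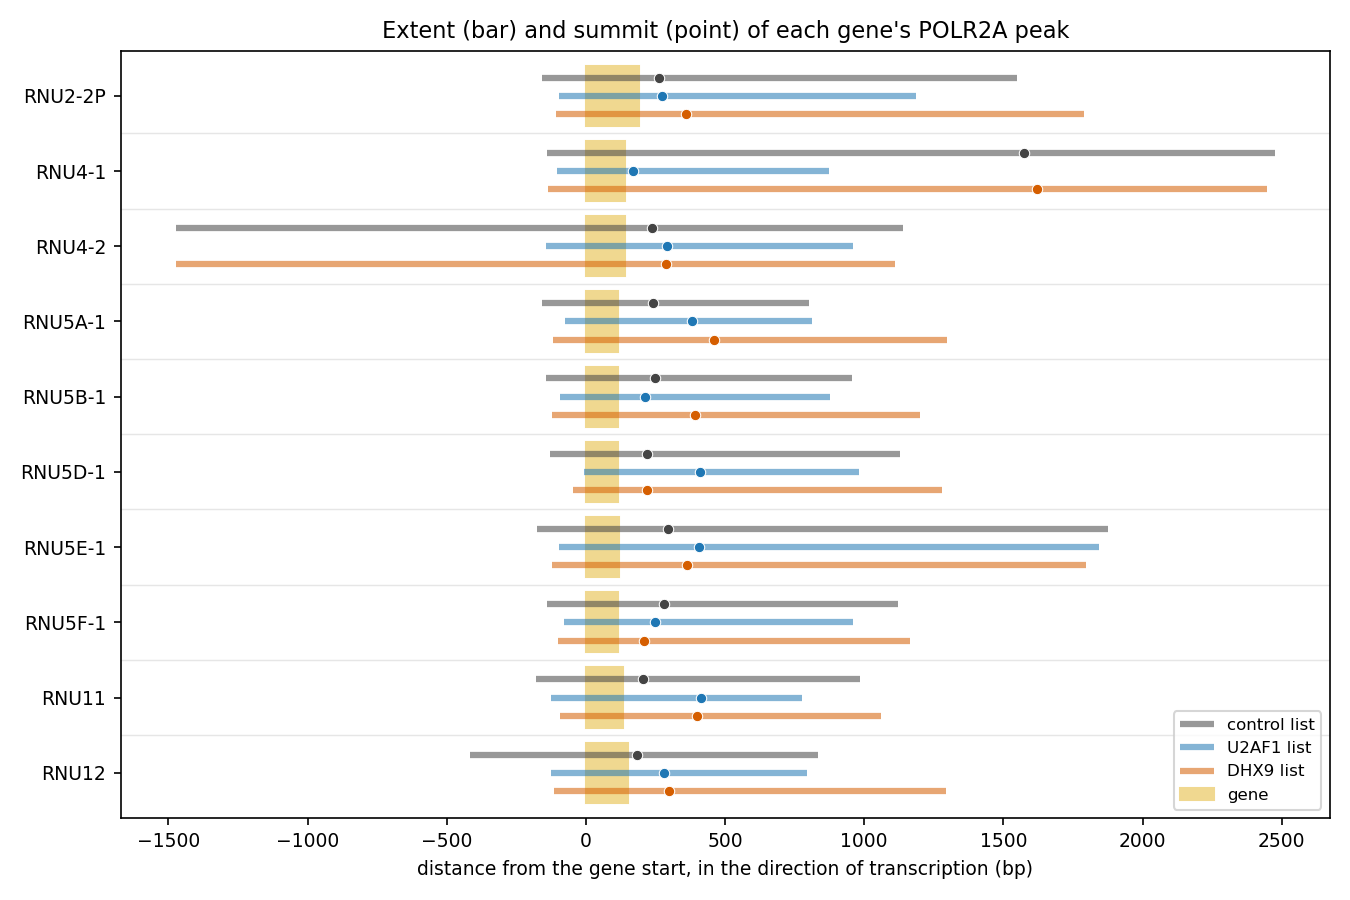
Extent (bars) and summit (points) of each gene's peak in the control, U2AF1 and DHX9 lists, as distance in bp from the gene start in the direction of transcription, with the gene as a yellow box. All summits lie to the right of the gene. The bar and summit shared by RNU4-1 and RNU4-2 in the control and DHX9 lists are drawn for both genes, and the bar is split in the U2AF1 list.

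Summits lay beyond the 3′ end of the gene in all 10 genes and all 3 lists. In the control and DHX9 lists these were 9 distinct summits, since RNU4-1 and RNU4-2 shared 1. That summit lay 1433 and 1481 bp past the end of RNU4-1, so a summit of RNU4-1 alone was seen only in the U2AF1 list, 28 bp past its end. For the 8 genes other than the U4 genes, the summit was past the gene's end by 33 to 175 bp (control list), 82 to 294 bp (U2AF1 list) and 93 to 347 bp (DHX9 list). From the gene start, the median distances were 245, 330.5 and 361.5 bp. At protein-coding starts the medians were 75, 88 and 79 bp, and the upper quartiles 142, 178 and 166 bp. All 8 summits lay past the upper quartile of coding starts in their list. Peaks at coding starts reached a median of 238, 246 and 251 bp downstream of the start, while the reach of the 8 genes was counted from the gene's end. Among the 100 strongest peaks of each list, 21, 32 and 24 other peaks lay at coding starts. Their median reach was 310, 260.5 and 438 bp, and their median summit distance 60, 61 and 71.5 bp.

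**Figure D4:**
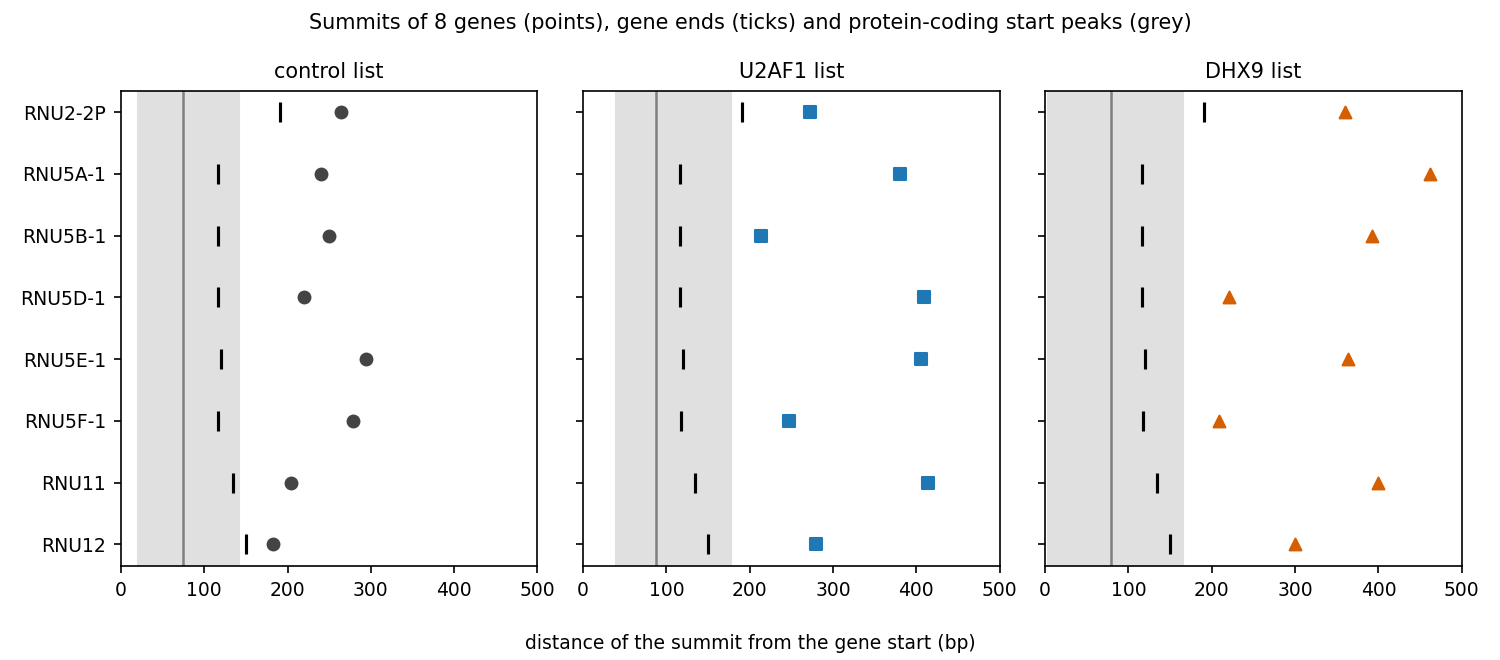
Distance of the summit from the gene start in bp for the 8 genes other than RNU4-1 and RNU4-2 (points), in 1 panel per list, with each gene's end as a tick. The grey band and line are the quartiles and median over protein-coding start peaks of the same list, with medians of 75, 88 and 79 bp, and all points lie to the right of the band and of the gene's end.

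Between lists, most summits of these genes lay farther downstream in a knockdown list than in the control list. In the U2AF1 list 6 of the 8 lay downstream of the control summit, with a median distance of 105 bp. RNU11 was farthest, with 210 bp, followed by RNU5D-1 with 189 bp, while RNU5B-1 lay 36 bp and RNU5F-1 32 bp upstream. In the DHX9 list 7 of the 8 lay downstream, with a median of 107 bp. RNU5A-1 was farthest there, with 222 bp, RNU5D-1 differed by 1 bp, and RNU5F-1 lay 70 bp upstream. Both medians use the same control summits, so they are not independent of each other, and no test was made.

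Other peaks at gene starts, of every gene class, were paired where they overlapped one to one between the lists. For them the median distance was 2 bp over 741 pairs in the U2AF1 list, with 51.1% downstream, and −3 bp over 1539 pairs in the DHX9 list, with 47.1% downstream. Among pairs whose control peak was at least 959 bp wide, the width of the narrowest of the 8, the medians were 14.5 bp (56 pairs, 62.5% downstream, upper quartile 110 bp) and 32 bp (57 pairs, 68.4% downstream, upper quartile 145 bp). Wide peaks of other genes thus lay downstream more often as well, and the medians of the 8 genes lay below their upper quartiles. The displacement was also seen in some related snRNA genes and not in others. Summits in the control, U2AF1 and DHX9 lists lay 189, 463 and 435 bp from the start at RNU1-1, 177, 501 and 485 bp at RNU1-3, and 226, 361 and 491 bp at RNU4ATAC. They lay at 592, 593 and 581 bp at RNU1-2 and at 513, 462 and 480.0 bp at RNU1-4. At RNU2-1 they lay 336, 303 and 310.0 bp past the end of the gene. RNU7-1 had 244, 352 and 211 bp, downstream in the U2AF1 list alone. By peak midpoints in place of summits, the median of the 8 genes was −13.8 bp in the U2AF1 list, the reverse direction, and 125 bp in the DHX9 list. The downstream position in the U2AF1 list therefore held for summits and not for whole peaks.

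Against the control list, the upstream edges of the peaks were displaced in the same direction in the 2 knockdown lists. Most downstream edges were displaced in opposite directions. The upstream edge lay nearer to the start than in the control list in 8 of 8 genes in each knockdown list, by a median of 70 bp in the U2AF1 list and 53 bp in the DHX9 list. For the other start peaks the upstream edge lay nearer in 67.6% and 43.3% of pairs, and for the wide ones in 87.5% and 50.9%. The downstream edge lay nearer to the gene in 7 of 8 genes in the U2AF1 list, by a median of 114 bp, RNU5A-1 being the exception with 8 bp farther. It lay farther from the gene in 7 of 8 in the DHX9 list, by a median of 194.5 bp, RNU5E-1 being the exception. The largest extensions were 494 bp at RNU5A-1 and 459 bp at RNU12. Among the wide peaks of other genes the downstream edge lay farther in 16.1% and 71.9% of pairs. Peak edges depend on the depth of a list, which is not known here, and the part of depth in these distances was not tested.

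Most of the 50-base words under the summits had no exact match at another place in the reference. Of the 50-base words in the peaks, 81.0% (RNU5A-1 in the DHX9 list) to 100% (RNU11) occurred once in the reference. Within 100 bp of the summit the share was 100% in 28 of 30 cases, with 97.0% at RNU5A-1 in the DHX9 list and 96.0% at RNU5D-1 in the U2AF1 list. For words of 100 bases, it was at least 99.3% of each whole peak. Inside the genes themselves the words recurred: those of RNU2-2P at 917 other places, 819 of them in genes annotated as U2 and 67 in RNU2-1. Words of RNU5A-1 and RNU5B-1 were found at 9 places in each other, while RNU5F-1, RNU11 and RNU12 had 0 exact copies of theirs. The summits past the ends of the genes thus lay mostly in sequence with no exact copy of 50 bases. Reads inside RNU2-2P may belong to other U2 genes. Copies with mismatches were not counted. Words of RNU4-2 were found at only 1 other place, in RNU4-1, although the 2 RNAs shared 97.2%. Whether reads could be placed on such near copies was not tested.

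Related genes outside the 10 had peaks of the same kind. RNU4ATAC, the U4 RNA of the minor spliceosome, ranked 58, 131 and 13 in the control, U2AF1 and DHX9 lists, and RNU2-1 ranked 59, 156 and 15. RNU5E-1 had the same order of lists, with 61, 94 and 9. RNU7-1, the U7 RNA of histone mRNA processing, ranked 17, 16 and 25. Of the genes of U1, which pairs with the 5′ splice site, RNU1-1 ranked 7, 20 and 17, RNU1-2 44, 130 and 24, RNU1-3 55, 23 and 52, and RNU1-4 16, 41 and 6. RNU6ATAC and RN7SK, read by RNA polymerase III, had 0 peaks in all 3 lists.

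Of 208 other annotated genes of the U2, U4, U5, U11 and U12 families, 7 had a peak in the control list, 6 in the U2AF1 list and 6 in the DHX9 list. RNU5E-4P lay in the peak of RNU5E-1. Of the rest, RNU5E-6P ranked 22, 33 and 46, RNU5A-8P 84, 105 and 64, and RNU2-63P 86, 126 and 72. These 3 are named as pseudogenes, and their summits lay 120 to 512 bp from the start. RNU4-8P had a peak in the control list alone, at rank 1938, with a summit 804 bp from the start.

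Genes for the factors that make these RNAs had start peaks in part. Of 30 genes for SNAPc subunits, octamer and ZNF143 factors, the little elongation complex, Integrator and export factors, 11 had a summit within 1000 bp of the start in the control list, 4 in the U2AF1 list and 12 in the DHX9 list, or 36.7%, 13.3% and 40%. INTS10 and INTS13, which encode Integrator subunits, and RPAP2, a polymerase phosphatase, had a start peak in all 3. Of 32 genes for proteins of the U2, U4, U5 and U11/U12 particles, 4, 0 and 8 had one, or 12.5%, 0% and 25%, beside 11%, 5.6% and 18% of all protein-coding genes. SNRNP25, a protein of the U11/U12 particle, had one in the control and DHX9 lists.

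Among 672 protein-coding genes with a start peak in all 3 lists, those whose rank percentiles were most like the median of the 10 genes were CROCC, MKNK2 and TAF12. The largest difference over the 3 lists was 0.529 percentile points for CROCC, whose peak is that of RNU1-4, and 0.925 for TAF12, whose peak is that of RNU11. It was 0.889 for MKNK2, a kinase gene, which ranked 46, 28 and 60.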

How the data were processed

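The 3 lists, 1 for each condition, are the authors' deposited peak tables. Their 9 samples were grouped by the labels. The submitters' processing notes name Bowtie2 2.4.5, MACS2 2.2.7.1, deepTools 3.5.1 and hg38, with no roles or settings. Each deposited peak has a fold enrichment, which is a ratio, and the authors' −log10 of its p-value and q-value. The integer score the authors deposited per peak was not used. The summit is an offset in bp from the peak start, by the standard column order of this format. The peak names of the control list carry the number 1 and those of the knockdown lists no number, so which libraries entered each list is not known. All sequence names of the lists occur in the GRCh38 reference, and 0 peaks run past a sequence end.

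Peaks were assigned to GENCODE version 44 genes with Python 3.11.15, pandas 2.3.3, NumPy 2.4.6 and SciPy 1.17.1. Where a gene had several peaks, that of highest fold enrichment was used. Coordinates count from 1. Pileup and background were solved from fold and p with a pseudocount of 1. Sequences were read by coordinate from GRCh38, and RefSeq promoters served as the background for motifs. Words of 50 and 100 bases were counted on both strands of 194 of the 455 reference sequences, leaving out alternate loci. RNAs were aligned with Biopython 1.88. The steps were checked on simulated peaks.

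The genes and the gene lists were chosen with earlier results of these data known, and all values are descriptions without tests. The text names all 10 genes, genes starting within 1000 bp of them, 9 other small RNA genes, family members with a peak, at most 5 factor genes and the 3 coding genes of most similar rank. The input samples gave no value of their own.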

Additional observations from a re-analysis of the deposited data

How the results depend on the processing

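Of 112 values recomputed under another setting, 98 stayed within the limits set for them (1.5 times for counts and widths, 50 bp for summit distances, the 95% Wilson interval for rank percentiles). Presence of all 10 genes in all 3 lists, and overlap of all 10 control peaks, held under every setting run for them. The genes were chosen by strong peaks, whose −log10 q was at least 32.77. The q limit, the lists of 1730 peaks and the limit to numbered chromosomes and X could not remove these peaks. Those settings could not change the widths or summit distances either. Each peak used covered its gene whole. A window of 500 bp and the limit to overlapping peaks therefore could not change presence, ranks, widths or summit distances. A window of 2000 bp could not change presence. Taking the nearest summit could change only RNU12 in the DHX9 list. Presence was thus fixed in advance under every setting run, as were the other values named here among the 98. The median rank percentile moved to 3.1% (U2AF1 list) and 1.04% (DHX9 list) with −log10 q of at least 5, and to 1.24% (control) and 1.71% (DHX9 list) with lists of 1730 peaks each, since fewer peaks were ranked. Among peaks overlapped in both other lists it was 2.32%, 3.73% and 3.55% in the control, U2AF1 and DHX9 lists. By recovered pileup, a setting chosen after seeing the data, it was 3.17%, 7.95% and 1.64%. The median share of words found once rose from 96.4% to 100% with words of 100 bases. The proximal element was matched in 0 genes without a mismatch and in 9 by ACC alone, the latter chosen after seeing the data. By peak midpoints, also added then, the median position in the U2AF1 list against the control list was −13.75 bp in place of 105 bp. Leaving out a replicate was not run, since each condition has 1 list. No paired analysis was possible because the lists carry no values per replicate.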
